A study of Mus musculus with 11 samples.

Results

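The binding of SA2, a subunit of cohesin, was compared between SA1-null and wild-type mouse embryonic fibroblasts (MEFs), primary cells grown out from embryos. The regions described are all intervals of the SA2 peak lists of the 2 genotypes, taken whole and without selection. There were 6352 SA2 peaks in SA1-null cells and 7741 in wild-type cells, 14093 in all of the 163094 intervals in the 10 lists of the series. On the 19 autosomes, to which the values refer unless chromosome X is named, there were 6260 peaks in SA1-null cells and 7540 in wild-type cells.

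Each SA2 list came from 1 chromatin immunoprecipitation and sequencing (ChIP-seq) library. The SA1-null cells lacked SA1 and the wild-type cells carried it. Both genotypes were untreated, were on a C57BL/6 x 129 Sv background and came from E12.5 embryos. The labels give neither the sex nor the number of embryos, and they do not describe how the SA1 allele was made. Other lists of the series mapped SA1, SMC1 and SMC3, the last 2 being parts of the cohesin ring. The SA1 antibody checks the genotype, with 78 autosomal peaks in SA1-null cells, against 25837 in wild-type cells.

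Cohesin is a ring of SMC1, SMC3 and a kleisin that encircles DNA. It holds sister chromatids together until division and forms chromatin loops, and much of it is found at sites bound by the insulator protein CTCF. In somatic cells each ring carries either SA1 or SA2, closely related proteins also named STAG1 and STAG2, so a cell without SA1 has SA2 as its only somatic subunit of this kind.

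For each peak the lists give its chromosome and limits, and no height or score. The SA2 libraries, 1 a genotype, gave no spread between replicates, so no test between genotypes was made. Shares carry 95% Wilson intervals and number ratios carry exact binomial ones, which cover the counting of peaks in these lists alone. Sequencing depth is unknown, and the length of a list depends on it. Both SA2 lists were called against the same input, that is, DNA sequenced without immunoprecipitation. The widths, the only other property of a peak in the files, had a median of 528 bp in SA1-null cells (25th to 75th percentile 444 to 623 bp) and 464.5 bp in wild-type cells (397 to 548 bp). SA2 peaks covered 3.37 Mb in SA1-null cells and 3.60 Mb in wild-type cells.

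SA1-null cells had fewer SA2 peaks than wild-type cells, and the deficit lay outside the positions where wild-type cells carry SA1. In SA1-null cells the peak number was 0.830 times the wild-type number (interval 0.803 to 0.859). At positions with a wild-type SA1 peak there were 5702 SA2 peaks in SA1-null cells and 5247 in wild-type cells, a ratio of 1.09 (interval 1.05 to 1.13). Away from SA1 there were 558 in SA1-null cells and 2293 in wild-type cells, a ratio of 0.243 (interval 0.221 to 0.267). The direction at SA1 positions depends on how the lists are cut. In the widest 50% of each SA2 list that ratio was 0.961, and with SA2 lists of equal length by width it was 1.28. The first setting cuts each list at its own median width, 528 bp in SA1-null and 464.5 bp in wild-type cells, and keeps the 0.830 ratio of list lengths. The second removes narrow wild-type peaks alone.

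By chromosome, the total was lower in SA1-null cells on all 19 autosomes, with ratios from 0.701 on chromosome 19 to 0.992 on chromosome 3. Among SA2 peaks at SA1 positions the ratio was below 1 on 4 autosomes, and it ran from 0.880 on chromosome 19 to 1.32 on chromosome 3. The number away from SA1 was between 10 (chromosome 19) and 46 (chromosome 4) per autosome in SA1-null cells and between 61 (chromosome 19) and 197 (chromosome 2) in wild-type cells. These ranges do not overlap, but the autosomes differ in size and share both libraries, so they are not replicates.

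**Figure D1:**
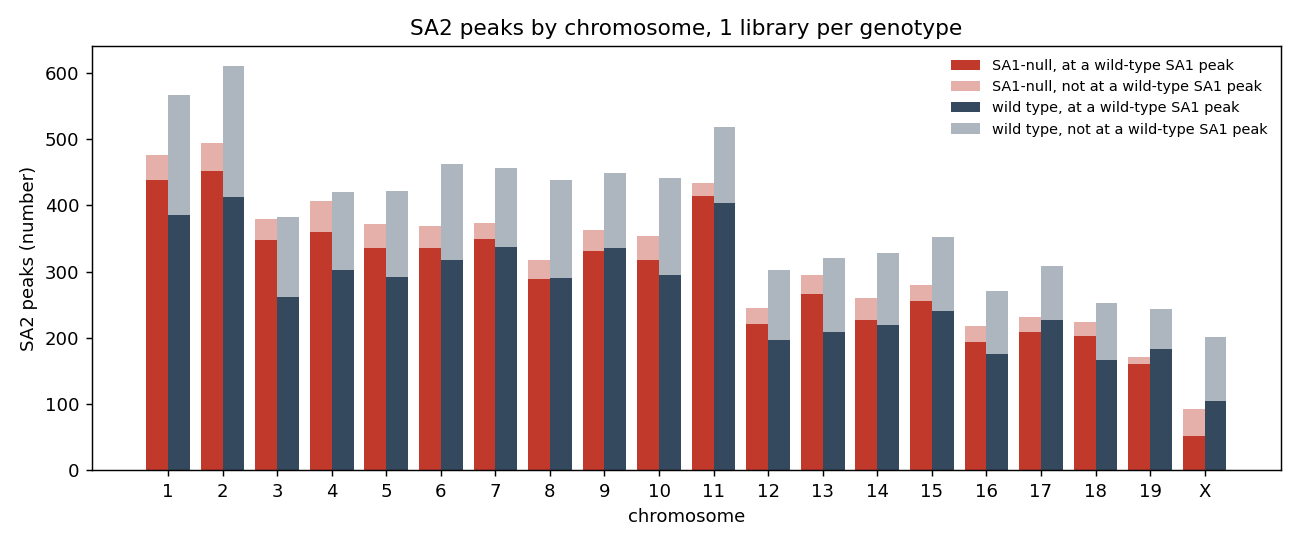
Number of SA2 peaks on each chromosome (vertical axis) in SA1-null cells (red, left bar) and wild-type cells (grey-blue, right bar), 1 library each. The full-colour part of a bar counts peaks at a wild-type SA1 peak and the pale part the others, which number 558 in SA1-null and 2293 in wild-type cells over the autosomes; chromosome X has 92 SA1-null and 201 wild-type peaks.

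Most SA2 peaks of either genotype had no partner in the other. In SA1-null cells, 2861 of 6260 peaks overlapped a wild-type SA2 peak by at least 1 bp (45.7%, interval 44.5 to 46.9%). In wild-type cells, 2863 of 7540 overlapped an SA1-null SA2 peak (38.0%, interval 36.9 to 39.1%). By chromosome the share ran from 39.3 to 50.5% of SA1-null peaks and from 33.7 to 43.3% of wild-type peaks. When the wild-type list was cut by width to as many peaks as the SA1-null list, the share was 39.8% in either genotype. Equal shares follow there from equal lengths, since nearly all partners are one-to-one. Of the bases in either list, 21.8% were in both.

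Where a partner existed, the peaks lay at one place. There were 2859 one-to-one pairs, and 4 further overlaps in which 1 peak met more than 1 peak of the other list. The midpoints of a pair were a median of 54.5 bp apart, and in 95% of pairs at most 160.5 bp apart. Within pairs the SA2 peak was wider in SA1-null cells in 1666 cases and wider in wild-type cells in 1187, with a median ratio of 1.07 (25th to 75th percentile 0.872 to 1.33). Median widths in pairs were 544 bp in SA1-null cells and 506 bp in wild-type cells.

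Peaks without a partner were rarely near misses. Of 3399 SA2 peaks called in SA1-null cells alone, 35 (1.03%) had a wild-type SA2 peak within 1 kb and 53.2% had one within 100 kb, at a median distance of 90.3 kb. Of 4677 called in wild-type cells alone, 34 (0.727%) had an SA1-null SA2 peak within 1 kb and 47.8% within 100 kb, at a median of 106 kb. The gap from 1 SA2 peak to the next within a list had a median of 209 kb in SA1-null cells and 168 kb in wild-type cells. For peaks away from SA1 it was 2862 kb in SA1-null and 697 kb in wild-type cells.

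The 3 kinds of SA2 position differed in the cohesin around them. Of the peaks called in SA1-null cells alone, 84.8% (interval 83.5 to 86.0%) lay at a wild-type SA1 peak. Of those called in wild-type cells alone, 51.8% (interval 50.4 to 53.3%) did. Of the SA1-null peaks with a wild-type partner, 98.6% (interval 98.1 to 98.9%) did. The 4 ring lists, SMC1 and SMC3 of each genotype, all had a peak at 66.0% of the SA2 peaks of SA1-null cells alone, at 35.0% of those of wild-type cells alone and at 84.7% of those in both genotypes. The SA1-null SMC lists are longer than the wild-type ones and were called against another input than SA2, and for SMC1 the SA1-null list takes 2 libraries together.

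**Figure D2:**
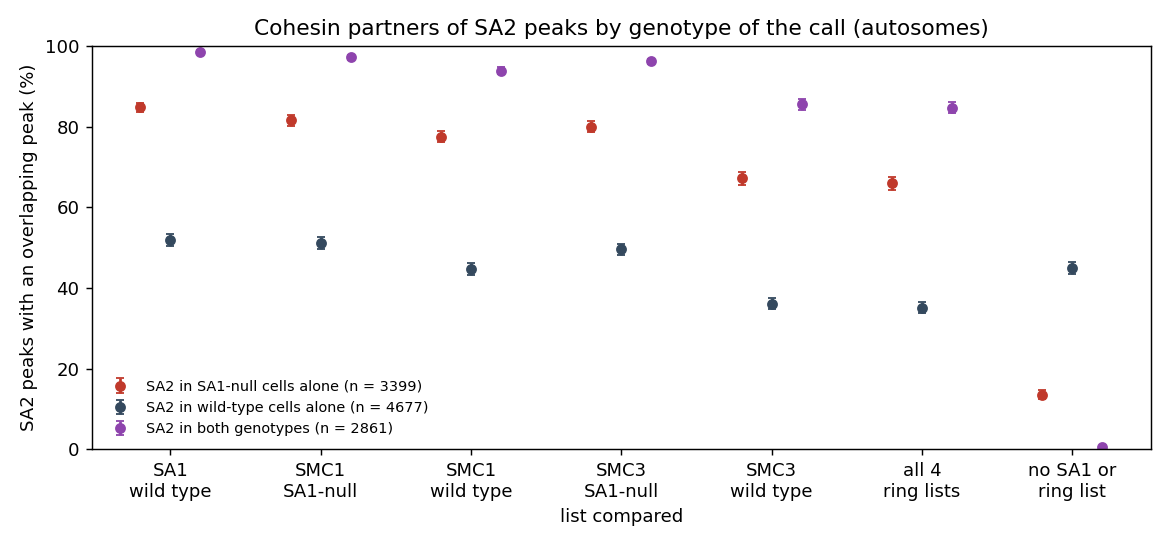
Share of autosomal SA2 peaks (vertical axis, percent) that overlapped a peak of each list named below the axis, for SA2 peaks called in SA1-null cells alone (red), in wild-type cells alone (grey-blue) and, as SA1-null peaks, in both genotypes (purple). Bars are 95% Wilson intervals. Peaks in both genotypes have the highest share in every SA1 and ring list and peaks of wild-type cells alone the lowest, while 45.0% of the peaks of wild-type cells alone have no SA1 or ring peak at all.

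Ring subunits accompanied SA2 more often in SA1-null cells. Both SMC1 and SMC3 of the same genotype were present at 5428 SA2 peaks of SA1-null cells (86.7%, interval 85.8 to 87.5%) and at 4075 of wild-type cells (54.0%, interval 52.9 to 55.2%). These shares use different ring lists, of which the SA1-null ones are longer. With the SA1-null ring lists for both, the shares were 86.7% of SA1-null and 66.4% of wild-type SA2 peaks. With the wild-type ring lists they were 74.9% and 54.0% in the same order. Against the 4 ring lists as 1 set, which are the same for both genotypes, the numbers were 4667 SA2 peaks in SA1-null and 4064 in wild-type cells, a ratio of 1.15 (interval 1.10 to 1.20). In the widest 50% of each SA2 list, cut at each list's own median width, that ratio was 1.01. With SA2 lists of equal length it was 1.33.

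SA2 peaks with no SA1 and no ring peak in any list numbered 475 in SA1-null cells (7.59%, interval 6.96 to 8.27%) and 2119 in wild-type cells (28.1%, interval 27.1 to 29.1%). Both lists carry the mark FDR10 in their names, taken here to mean that 10% of calls may be false. The wild-type share is above that figure and the SA1-null share below it, but the figures measure different things. A peak without SA1 or ring need not be a false call, and which calls are false was not tested. Only 15 of the 475 had a wild-type SA2 partner (3.16%) and 15 of the 2119 an SA1-null one (0.708%). Peaks that overlapped some SA1 or ring peak numbered 5785 in SA1-null and 5421 in wild-type cells, a ratio of 1.07 (interval 1.03 to 1.11). Of these, 49.2% of the SA1-null peaks and 52.5% of the wild-type peaks had a partner in the other genotype.

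The overlap between genotypes followed SA1 and the ring together. Among SA1-null SA2 peaks at SA1 positions, 50.6% had a wild-type SA2 partner where SMC1 and SMC3 of SA1-null cells were both present and 28.3% where neither was. Among wild-type SA2 peaks at SA1 positions, 59.8% of 4025 had an SA1-null partner where both wild-type ring subunits were present, 38.9% of 661 where SMC1 alone was, and 27.9% of 501 where neither was. The rare SA2 peaks with both ring subunits and no SA1 peak had shares nearer to those at SA1 positions, with 26 of 64 in SA1-null cells (40.6%, interval 29.5 to 52.9%) and 25 of 50 in wild-type cells (50%, interval 36.6 to 63.4%) called again in the other genotype. Away from both SA1 and the ring the share was 3.09% of 485 SA1-null and 0.726% of 2203 wild-type peaks. For all wild-type SA2 peaks, the share called in SA1-null cells was 52.0 percentage points higher at SA1 positions than away from them (Newcombe 95% interval 50.5 to 53.4). Away from SA1 there were 558 SA1-null and 2293 wild-type peaks, and nearly all partners are one-to-one, which limits how high the wild-type share could be there. For SA1-null SA2 peaks the share called in wild-type cells was 42.1 percentage points higher at SA1 positions (interval 39.3 to 44.4).

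The overlap differed less between classes of peak width than between peaks at and away from SA1. Of the 2293 wild-type SA2 peaks away from SA1, 2203 also lacked both wild-type ring subunits. The comparison therefore does not separate SA1 from the ring. When the SA2 peaks of each genotype were divided into 10 classes of width, 36.4 to 51.9% of the SA1-null peaks in a class had a wild-type partner and 23.5 to 62.2% of the wild-type peaks had an SA1-null partner. At SA1 positions the ranges over the classes were 43.5 to 53% in SA1-null and 44.4 to 66.8% in wild-type peaks. Away from SA1 they were 1.71 to 37.5% in SA1-null cells, where the 37.5% is 6 of 16 peaks, and 0.610 to 13.8% in wild-type cells. In every class the share was higher at SA1 positions, though in the ninth SA1-null class the intervals overlapped (48.3 to 56.2% with SA1, 18.5 to 61.4% without).

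**Figure D3:**
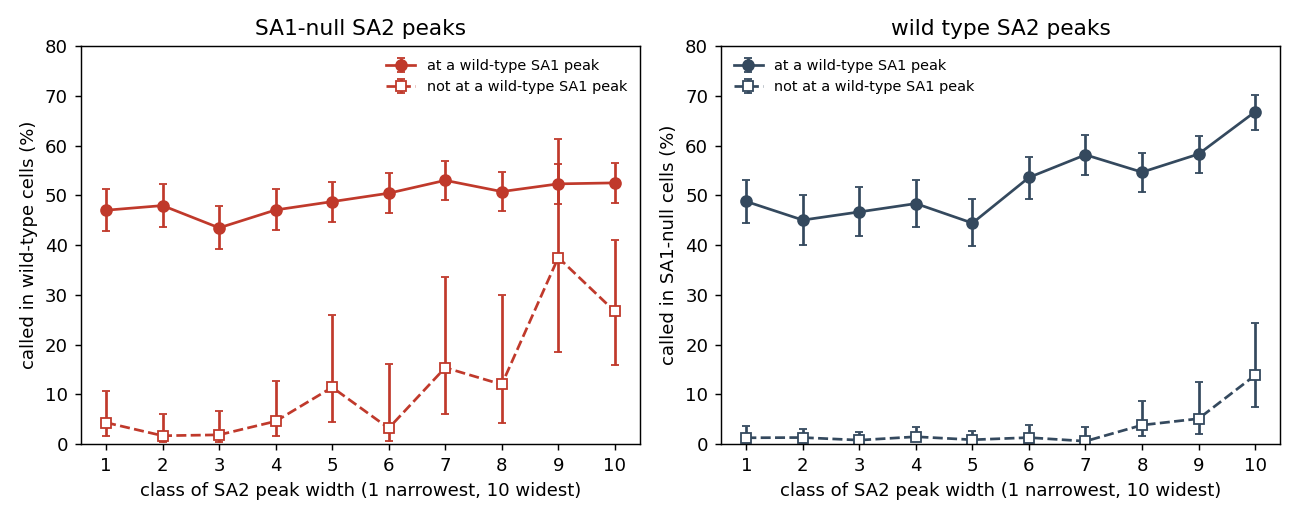
Share of SA2 peaks called in the other genotype (vertical axis, percent) by class of SA2 peak width (horizontal axis, 10 equal classes from narrowest to widest), for SA1-null peaks on the left and wild-type peaks on the right. Filled points are peaks at a wild-type SA1 peak and open points the others, with 95% Wilson intervals. The filled points lie above the open ones in all 10 classes of both panels.

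The narrowest wild-type SA2 peaks were not those with least cohesin. In the narrowest class, 211 to 340 bp, 69.4% lay at an SA1 peak and 61.5% at a wild-type SMC1 peak. In classes 2 to 5, 340 to 464 bp, 50.7 to 56.0% lay at SA1, and in the widest class, from 640 bp, 91.4% did. Of the SA1-null SA2 peaks, 85.3% lay at SA1 in the narrowest class, 81.3% in class 2, 97.4% in class 9 and 92.8% in the widest.

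Seen from the SA1 side, similar numbers of SA1 positions carried SA2 in both genotypes, and in each genotype these positions divided about evenly into those shared with the other genotype and those of its own. Of 25837 wild-type SA1 peaks, 5708 had an SA2 peak in SA1-null cells (22.1%, interval 21.6 to 22.6%) and 5249 in wild-type cells (20.3%, interval 19.8 to 20.8%). In the widest 50% of each SA2 list the order turned, with 11.6% in SA1-null and 12.1% in wild-type cells. That setting keeps the wild-type list the longer one and cuts it at a smaller width than the SA1-null list. With SA2 lists of equal length the shares were 22.1% in SA1-null and 17.3% in wild-type cells. SA2 was called in SA1-null cells alone at 2880 SA1 positions (11.1%), in wild-type cells alone at 2421 (9.37%), in both at 2828 (10.9%) and in neither at 17708 (68.5%). The SA1 peak itself had a median width of 623 bp where SA2 was called in SA1-null cells alone, 571 bp in wild-type cells alone, 642 bp in both and 499 bp in neither.

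Wide SA1 peaks carried SA2 more often, and more steeply so in SA1-null cells. In the narrowest of 10 classes of SA1 peak width, 4.10% (interval 3.40 to 4.94%) had SA2 in SA1-null cells and 6.93% (interval 6.01 to 7.97%) in wild-type cells. In class 5, 498 to 535 bp, the shares were 17.6% in SA1-null and 17.8% in wild-type cells. In the widest class, from 717 bp, they were 51.0% (interval 49.1 to 53.0%) in SA1-null and 38.1% (interval 36.2 to 40.0%) in wild-type cells. The wild-type share was the larger in the 5 narrower classes and the SA1-null share in the 5 wider ones.

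**Figure D4:**
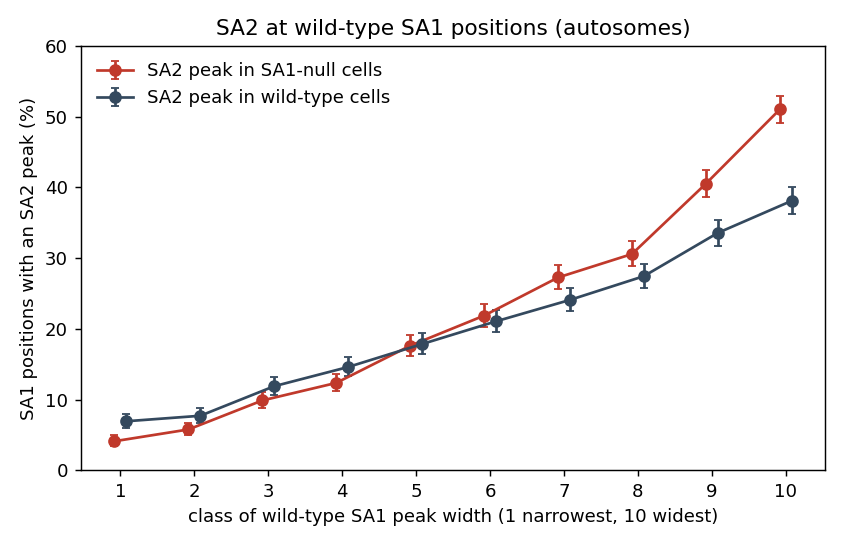
Share of wild-type SA1 positions with an SA2 peak (vertical axis, percent) by class of SA1 peak width (horizontal axis, 10 equal classes from narrowest to widest), for SA2 in SA1-null cells (red) and in wild-type cells (grey-blue), with 95% Wilson intervals. The wild-type curve is the higher one in the 5 narrower classes, and the curves reach 51.0% in SA1-null and 38.1% in wild-type cells in the widest.

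Positions where the ring was called in every SMC list give a set that does not change between genotypes. At 14116 such positions, defined as wild-type SMC3 peaks with a peak in the other 3 ring lists, SA2 was called at 33.0% (interval 32.3 to 33.8%) in SA1-null cells and at 28.8% (interval 28.0 to 29.5%) in wild-type cells. Of these positions 12548 had SA1, and there the SA2 shares were 36.8% in SA1-null and 32.0% in wild-type cells. At the 1568 ring positions without SA1, SA2 was called at 50 in SA1-null cells (3.19%, interval 2.43 to 4.18%) and at 48 in wild-type cells (3.06%, interval 2.32 to 4.04%), of which 24 were the same positions.

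Ring positions called in SA1-null cells but not in wild-type cells carried few SA2 peaks of either genotype. There were 9024 SA1-null SMC3 peaks with SMC1 and without a wild-type ring peak. SA2 was called at 160 of them in SA1-null cells (1.77%, interval 1.52 to 2.07%) and at 257 in wild-type cells (2.85%, interval 2.52 to 3.21%). Most of these SA2 calls lay at the 2315 positions with SA1, with 153 in SA1-null (6.61%, interval 5.67 to 7.69%) and 222 in wild-type cells (9.59%, interval 8.46 to 10.9%). Among the 6709 ring positions of this set without SA1 the numbers were 7 in SA1-null and 35 in wild-type cells.

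The genotypes also differed in where along the chromosomes SA2 was called. In windows of 1 Mb the number of SA2 peaks reached at most 11 in SA1-null cells and 19 in wild-type cells, with medians of 2 and 3 in that order. Of 2421 windows, 670 held more SA1-null than wild-type peaks, 1120 held fewer, 438 held equal numbers and 193 held none. Across windows, which neighbour each other and all share the same libraries, the SA1-null and wild-type SA2 numbers had a Pearson r of 0.652 and a Spearman rho of 0.664. For SA2 at SA1 positions the values were 0.723 and 0.754. The wild-type SA2 peaks away from SA1 followed the number of SA1 peaks only weakly (r = 0.152, rho = 0.161).

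At SA1 positions the number of SA2 peaks in SA1-null cells, relative to wild-type cells, was lowest in the windows richest in SA1 peaks. In windows with 0 to 4 SA1 peaks, 19.2% (interval 17.0 to 21.8%) of SA1 positions had SA2 in SA1-null cells and 13.7% (interval 11.8 to 16.0%) in wild-type cells. With 5 to 9 SA1 peaks the shares were 24.2% in SA1-null and 17.3% in wild-type cells, and with 10 to 19 they were 22.6% and 20.4% in the same order. In windows with 20 or more the order was the other way, 20.3% (interval 19.4 to 21.3%) in SA1-null and 22.8% (interval 21.9 to 23.8%) in wild-type cells. Expressed as number ratios of SA2 peaks at SA1 positions, these classes gave 1.40, 1.40, 1.11 and 0.891 from sparse to dense. Which of them lie below 1 depends on the lists, since with SA2 lists of equal length the densest class gave 1.06, and in the widest 50% of each list the class with 10 to 19 SA1 peaks gave 0.983. The densest class was the lowest in both settings.

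The densest windows had the lowest ratio at wide and at narrow SA1 peaks. In the wider 50% of SA1 peaks the SA1-null share divided by the wild-type share was 1.17, 1.45, 1.22 and 1.01 from sparse to dense, and in the narrower 50% it was 2.08, 1.24, 0.838 and 0.636. At SA1 positions in all 4 ring lists it was 1.21, 1.46, 1.19 and 0.968. The median width of an SA1 peak differed little between the classes, from 501.5 to 540 bp. SMC1 and SMC3 peaks at SA1 positions also had their highest ratios in sparse windows, 1.40 for SMC1 and 1.79 for SMC3, against 1.19 and 1.44 in the densest.

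**Figure D5:**
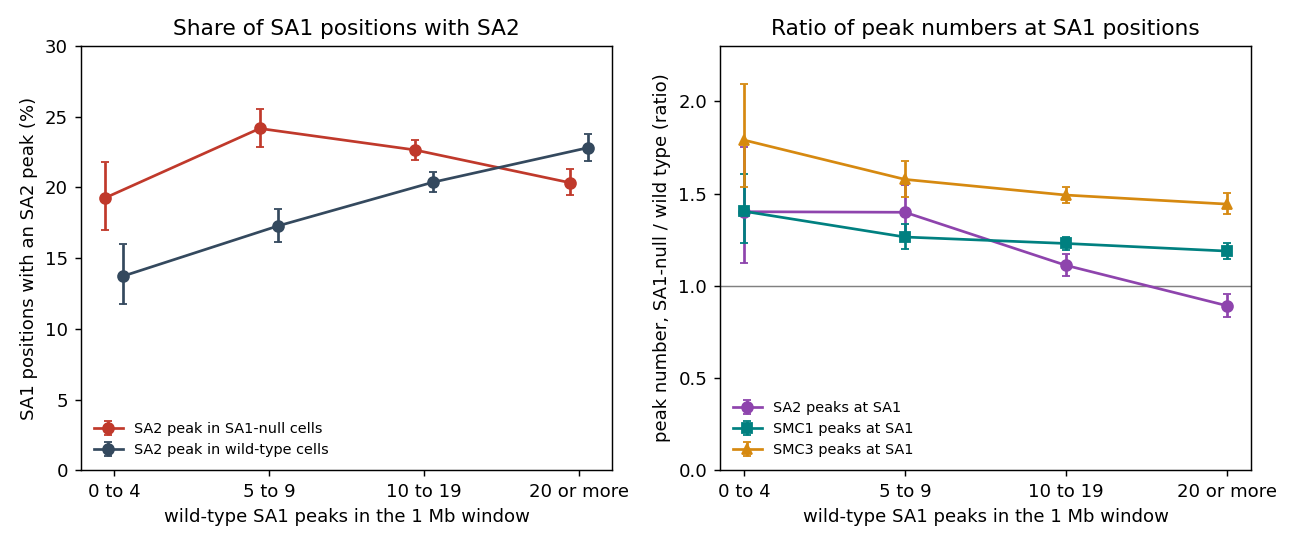
Left, share of wild-type SA1 positions with an SA2 peak (percent) in SA1-null cells (red) and wild-type cells (grey-blue), by the number of SA1 peaks in the 1 Mb window around them, with 95% Wilson intervals. Right, SA1-null peak number divided by wild-type peak number at SA1 positions for SA2, SMC1 and SMC3, with exact binomial intervals and a line at 1. The SA2 ratio is 1.40 in the sparsest windows and 0.891 in the densest, where it is 1.06 with SA2 lists of equal length.

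The density of SA1 peaks ran from 8.86 per Mb on chromosome 12 to 14.4 per Mb on chromosome 11. Over the 19 autosomes it was inversely related to the ratio of SA2 peaks at SA1 positions, with a Pearson r of -0.554 and a Spearman rho of -0.644. Without chromosomes 11 and 19, the farthest from the median density, r was -0.485. The autosomes share both libraries, so these values describe 1 pair of libraries.

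Single windows showed how large the differences became. The largest deficit was on chromosome 2 from 32000001 to 33000000 (mm9), with 5 SA2 peaks in SA1-null cells and 19 in wild-type cells, of which 7 wild-type peaks lay away from SA1. That window held 31 SA1 peaks. On chromosome 7 from 17000001 to 18000000 there were 2 SA1-null and 14 wild-type SA2 peaks among 25 SA1 peaks. On chromosome 4 from 43000001 to 44000000 there were 3 and 13 in the same order among 28 SA1 peaks. SMC3 peaks numbered 47 in SA1-null and 24 in wild-type cells in the window on chromosome 2. In the same order they numbered 42 and 25 on chromosome 7 and 41 and 24 on chromosome 4. The SA1-null SMC3 list is the longer one over all autosomes, with 34099 peaks against 15287. Over all windows with 20 or more SA1 peaks its number ratio was 2.14. The counts therefore show no SMC3 gain particular to these windows. In the other direction 4 windows tied at 6 more SA2 peaks in SA1-null cells. On chromosome 1 these were 13000001 to 14000000 (7 SA1-null and 1 wild-type SA2 peaks among 10 SA1 peaks) and 91000001 to 92000000 (8 and 2 in the same order among 20 SA1 peaks). On chromosome 4 from 115000001 to 116000000 there were 6 SA1-null peaks and 0 wild-type peaks among 13 SA1 peaks.

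The fourth of these windows belongs to a stretch of chromosome 4 with another make-up, singled out after its values were seen. Between 145000001 and 147000000 there were 10 SA2 peaks in SA1-null cells and 0 in wild-type cells. No SMC1 peak of either genotype and no SA1-null SMC3 peak fell there, and 2 SA1 and 2 wild-type SMC3 peaks did. The SA2 peaks there were between 382 and 4391 bp wide. The input lists held 16 and 19 intervals in this stretch and the SA1-null SA1 list 6, and 2 of the 10 SA2 peaks overlapped one of them. The part of this signal in the SA2 peaks was not tested.

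The widest SA2 peaks of each kind, outside background intervals and chromosome 18, illustrate the 3 kinds of position. Called in SA1-null cells alone were peaks on chromosome 4 from 145021347 to 145022690, from 145153583 to 145154851 and from 146870825 to 146871989, all in the stretch described above and without SA1 or ring. The others of this kind, which span 128523237 to 128524413 of chromosome 2 and 36197697 to 36198851 of chromosome 17, had SA1 and all 4 ring lists. Called in wild-type cells alone were a peak of 2416 bp on chromosome 1 from 90182994 to 90185409 and, on chromosome 8, peaks from 73345331 to 73346355 and from 122128365 to 122129358, besides a peak on chromosome 12 that spans 51052683 to 51053666. These 4 had SA1 and all 4 ring lists. The last of this kind, on chromosome 4 from 3151934 to 3152904, had none of them.

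Called in both genotypes were SA2 peaks at 64297502 to 64298352 of chromosome 5, with widths of 851 bp in SA1-null and 788 bp in wild-type cells, and at 60988884 to 60989708 of chromosome 15, with 825 and 759 bp in the same order. The next spanned 77887097 to 77887901 of chromosome 2, then 151751959 to 151752774 of chromosome 3, then 131176129 to 131177077 of chromosome 8. All 5 had a peak in the 4 ring lists, and all but that on chromosome 15 had an SA1 peak. A wide SA2 peak in 1 genotype alone was found with full cohesin as well as without any.

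Chromosome X departed from the autosomes. It held 92 SA2 peaks in SA1-null cells and 201 in wild-type cells, a ratio of 0.458 (interval 0.354 to 0.589), below the 0.701 of the lowest autosome. At SA1 positions the numbers were 51 in SA1-null and 104 in wild-type cells, a ratio of 0.490 (interval 0.344 to 0.692), against 0.880 to 1.32 on autosomes. SMC1 and SMC3 had ratios of 1.87 and 2.54 on X, but their SA1-null lists are longer on autosomes too. Over the autosomal classes of SA1 density the ratio was 1.82 to 2.24 for SMC1 and 2.14 to 2.36 for SMC3. Partners in the other genotype existed for 22 of the SA1-null peaks (23.9%) and 22 of the wild-type peaks (10.9%). In SA1-null cells 55.4% of the X peaks lay at SA1, against 87.3 to 95.4% on autosomes, and in wild-type cells 51.7%, against 64.7 to 78.0%.

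Background intervals, those of the inputs and of the SA1 antibody in cells without SA1, overlapped SA2 on X in SA1-null cells. Of the 92 SA1-null SA2 peaks, 30 (32.6%, interval 23.9 to 42.7%) met such an interval, and 1 of the 201 wild-type peaks did (0.498%). On autosomes such overlaps made up 64 of the SA1-null SA2 peaks (1.02%) and 43 of the wild-type ones (0.570%). With these intervals removed, X held 62 SA2 peaks in SA1-null cells and 200 in wild-type cells, a ratio of 0.310, and 82.3% of the SA1-null peaks lay at SA1.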

How the data were processed

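ChIP-seq libraries of SA1, SA2, SMC1 and SMC3 from SA1-null and wild-type MEFs gave 10 interval lists for 11 samples, of which 2 are inputs. The values are start and end positions on mm9, deposited by the authors without score. The submitters' processing notes name CASAVA 1.7. No aligner or peak caller is named in the sources read here. The names of the deposited lists give the input, the false discovery rate and the pooling of SMC1 replicates.

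Overlaps of at least 1 bp were counted with Python 3.11.15 and numpy 2.4.6, tested on simulated data and set beside bedtools 2.31.1. Intervals used scipy 1.17.1 and statsmodels 0.14.6 (confidence level 95%), and matplotlib 3.10.9 drew the plots. Background intervals are those of both inputs and the SA1-null SA1 list. Named items were the 5 widest autosomal peaks of each kind that met no background interval and the 3 windows with the largest difference each way, ties added. Positions on chromosome 18 were counted but, by the naming rule, not named. Wider peaks on background intervals are therefore unnamed. Depth is unknown. No genome or annotation of mm9 was used here, so genes and sequences were not analysed. Members, lists and classes were chosen with earlier results of these data known. Alternatives were another overlap, merged peaks, removed background, chromosome X, width cuts and a tolerance of 500 bp.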

Additional observations from a re-analysis of the deposited data

Results flagged for a closer look

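SA2 peaks of SA1-null cells on chromosome X coincided with intervals from lists outside the SA2 measurement, above the level in wild-type cells. An interval of the input that served as control for both SA2 lists was present at 23 of 92 SA1-null SA2 peaks (25%, interval 17.3 to 34.7%) and at 0 of 201 wild-type SA2 peaks, which allows a share of up to 1.49% when 3 counts are taken as the limit for a count of 0. The SA1-null SA1 list overlapped 30 of the 92 SA1-null peaks (32.6%) and 0 of the 201 wild-type peaks. These SA2 peaks were concentrated. The stretch from 53000001 to 54000000 held 11 SA1-null and 3 wild-type SA2 peaks, with 17 intervals of that input and 18 SA1-null SA1 peaks. From 120000001 to 122000000 the SA1-null SA2 list held 10 and 9 peaks in successive windows of 1 Mb and the wild-type list 0, with 16 and 13 input intervals and 29 and 22 SA1-null SA1 peaks. The limits cover counting error only.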

How the results depend on the processing

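Of 66 values recomputed for the main comparisons under other settings, 47 stayed within the interval of the reported value and 19 moved out of it. The genotype order of SA1 positions with SA2 turned in the widest 50%, where each list was cut at its own median width. Equal lengths made the shares with a partner equal by construction, since nearly all partners are one-to-one. In the widest 50% of each SA2 list, the share called in the other genotype was 34.6% of SA1-null and 28.7% of wild-type peaks, the share at SA1 95.4% and 82.5%, and the share with both ring subunits 92.7% and 67.3%, in that order. SA1 positions then had SA2 at 11.6% in SA1-null and 12.1% in wild-type cells. The share of wild-type peaks called in SA1-null cells was 31.9 percentage points higher at SA1 than away from it. Halving the lists removes partners by construction. It also keeps fewer SA1-null than wild-type peaks and cuts the SA1-null list at a larger width, so the genotypes are not compared at one width. With lists of equal length, partners existed for 39.8% of SA1-null and 39.8% of wild-type peaks, and the wild-type shares were 71.3% at SA1, 56.2% with both ring subunits and 17.3% of SA1 positions. Merging peaks gave SA2 at 22.9% of SA1 positions in SA1-null and 21.1% in wild-type cells, and the 500 bp tolerance, added after the data were seen, 22.6% and 20.9%. Removing background gave 87.5% of SA1-null SA2 peaks with both ring subunits. Among 49 further values, 3 turned direction. In the widest 50%, the ratio of SA2 peaks at SA1 was 0.961, and 0.983 in windows with 10 to 19 SA1 peaks. With equal lengths, it was 1.06 in windows with 20 or more. Their cause was not tested. The order from sparse to dense windows kept the densest lowest under each setting. The ratio of list lengths is fixed by both width settings and was not recomputed there. No paired analysis was possible because each genotype has 1 SA2 library. Without depth, a position without an SA2 peak cannot be read as one without SA2.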
